A study of Drosophila melanogaster with 2 samples.

Results

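Near-promoter intron peaks of the tagged HMG-box protein tHMG1 (CG7045) were the binding peaks whose summit lay in an intron of a protein-coding gene, off every annotated exon, more than 500 bp and at most 2000 bp from the nearest annotated transcription start site (TSS), on any chromosome but X. They numbered 628 of the 4574 peaks in the list that the authors kept by irreproducible discovery rate (IDR), and 15.8% (exact binomial 95% interval 14.7% to 17.0%) of the 3972 peaks off X. The position of the summit alone chose them, so peak signal and sequence were not used, while nearness to a TSS bears on which genes and introns could hold one. Chromatin immunoprecipitation followed by sequencing (ChIP-seq) had been carried out with an antibody against GFP on whole adult male Drosophila melanogaster of a transgenic line that stably carried tHMG1 fused to GFP at its C-terminus. The flies' age is recorded as unknown, and the labels do not name the promoter that drove the fusion. There were 2 biological replicates, numbered 1 and 3, which formed a single group, and a control experiment named in the labels was not used here. The question was therefore where on the genome the fusion protein bound, with no second condition to set against it.

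HMG-box proteins bind the minor groove of DNA and bend it, many of them with little preference for a particular sequence. tHMG1 belongs to the non-sequence-specific kind and is named for its transcripts in testis, where histones are exchanged for protamines as sperm nuclei condense. Introns close to a promoter, above all the one that follows the leading exon, are a common home of enhancers and of alternative start sites, so a summit there can lie near the control elements of its host gene or of a neighbour. In a preparation from whole flies, a peak averages over every tissue in which the fusion protein was present.

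The sequences under the strongest of these peaks are shown first, as examples of the base composition that is compared later over wider windows. Each covers the summit and 50 bases on either side of it, on the forward strand of build dm6, read from the RefSeq release 6 assembly, for the 6 strongest intron peaks that could be shown. The windows lay at chr2L:6612655-6612755 in CG11050, chr3L:14759452-14759552 in Trl, chr3R:11761013-11761113 in Lk6, chr2L:481013-481113 in ush, chr2L:3302147-3302247 in CG9663 and chr2L:7188562-7188662 in CG4496. Capitals mark matches, on either strand, to any of 10 short motifs that were searched, whose letters are spelled out with their frequencies further on.
CG11050: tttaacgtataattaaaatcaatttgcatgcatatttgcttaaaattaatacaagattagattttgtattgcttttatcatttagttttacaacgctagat
Trl: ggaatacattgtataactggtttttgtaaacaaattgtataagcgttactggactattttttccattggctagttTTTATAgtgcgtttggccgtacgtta
Lk6: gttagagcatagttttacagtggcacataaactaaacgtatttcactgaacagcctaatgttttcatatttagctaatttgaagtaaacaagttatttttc
ush: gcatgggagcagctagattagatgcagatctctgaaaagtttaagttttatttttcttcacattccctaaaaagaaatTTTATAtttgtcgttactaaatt
CG9663: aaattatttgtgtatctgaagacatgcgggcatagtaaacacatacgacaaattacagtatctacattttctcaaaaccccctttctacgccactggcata
CG4496: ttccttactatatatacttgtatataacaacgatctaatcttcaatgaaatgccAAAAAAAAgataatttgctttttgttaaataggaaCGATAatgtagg
All 6 printed windows held more A and T than G and C. Their GC content was 21.8% at CG11050, 33.7% at Trl, 29.7% at both Lk6 and ush, 37.6% at CG9663 and 25.7% at CG4496. Within 100 bp of the summit, the window compared later, it was 35.3% at CG11050, 27.4% at Trl, 34.3% at Lk6 and 34.8% at CG4496. At both ush and CG9663 it was 40.8%, above the median of 39.8% for intron sequence that could hold such a peak. None of the printed windows held GAGAG or CACACACA, but GAGAG lay within 100 bp of the Lk6 summit.

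For comparison with those 6, the strongest intron peaks that could be shown with a GA or CA repeat motif in the printed window were those of mub, which encodes a KH-domain RNA-binding protein, and of bun, a member of the TSC22 family of transcriptional regulators. Their windows lay at chr3L:21880474-21880574 and chr2L:12497800-12497900 in dm6.
mub: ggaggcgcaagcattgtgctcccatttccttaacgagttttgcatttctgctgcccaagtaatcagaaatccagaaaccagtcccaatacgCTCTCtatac
bun: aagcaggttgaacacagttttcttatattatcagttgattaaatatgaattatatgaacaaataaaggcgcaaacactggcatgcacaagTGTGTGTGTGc
The GC content was 46.5% in the window of mub, whose peak had a signal of 454.3. It was 34.7% in the window of bun, whose peak had a signal of 260.7 and a CA or TG run of 10 bases.

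Peak signal is the enrichment given by the authors' peak caller, a value within a list and not scaled between replicates, and the number of reads behind it is unknown. The 628 near-promoter intron peaks had a median pooled signal of 143.6 (order-statistic 95% interval 135.3 to 151.9), with a range from 90.3 to 2648. The 2364 promoter peaks, whose summit lay within 500 bp of a TSS, had a median of 152.0 (147.5 to 156.3), and the 588 intron peaks beyond 2000 bp had a median of 129.8 (125.1 to 138.9). The intron peaks near promoters therefore lay between these classes in median, and the ranges of all 3 overlapped almost throughout. Of the near-promoter intron peaks, 307 (48.9%) exceeded the median of all 3972 peaks off X, which was 146.3. Peaks with a signal of 500 or more made up 22 of the near-promoter intron peaks (3.50%), 160 of the promoter peaks (6.77%) and 16 of the deep intron peaks (2.72%). Regions are not replicates, so these intervals describe the spread over peaks and not over flies.

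The strongest near-promoter intron peak lay in CG11050, at chr2L:6612347-6613013 in dm6, and was the second strongest peak of the whole IDR list. It had a pooled signal of 2648, with 1575 in replicate 1 and 1080 in replicate 3. Its summit lay 1018 bp downstream of the nearest TSS of CG11050, in intron 2 of 4, an intron of only 140 bp. The promoter of CG11050 carried a weaker peak of its own, with a signal of 180.9, at 1862 bp from this summit.

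Trl encodes the GAGA factor, which binds GA repeats and keeps promoters open, and it held the next strongest peak, at chr3L:14759259-14759790. That peak had a pooled signal of 2023, with 1260 in replicate 1 and 763.2 in replicate 3, and its summit lay in intron 2 of 6, 1540 bp upstream of the nearest TSS of Trl. No GAGAG was found within 100 bp of that summit. Lk6, a kinase that phosphorylates the cap-binding protein eIF4E, held a peak at chr3R:11760847-11761463 with a pooled signal of 1549, and with 1025 in replicate 1 and 520.0 in replicate 3. It lay in intron 1 of 5, 984 bp upstream of an alternative TSS of Lk6.

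HmgZ and HmgD, neighbouring genes that encode HMG-box chromatin proteins related in kind to tHMG1, shared the fourth peak in the order of signal. Its pooled signal was 1526, with 919.8 in replicate 1 and 596.4 in replicate 3, and it lay in intron 1 of HmgZ, 558 bp upstream of a TSS of that gene and inside the body of HmgD as well. The peak in ush, which encodes a Friend-of-GATA cofactor, lay at chr2L:480571-481363 with a pooled signal of 1347, and with 793.1 in replicate 1 and 540.0 in replicate 3. Its summit was in intron 1 of ush, but 4843 bp from the nearest TSS of ush and 1375 bp upstream of cbt, a zinc finger transcription factor gene. A peak inside ush was thus counted as near a promoter through a neighbouring gene.

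CG9663 held 2 of the 12 strongest summits within a single interval, chr2L:3301844-3302650, in intron 1 of 7. The stronger of the pair had a pooled signal of 1291, with 777.8 in replicate 1 and 493.5 in replicate 3. The weaker, 200 bp away, had a pooled signal of 721.7, with 482.6 in replicate 1 and 243.0 in replicate 3. Adf1, a sequence-specific transcription factor, had a pooled signal of 884.0 in intron 1 of 2, with 596.4 in replicate 1 and 272.1 in replicate 3. CG4496 had 890.2 in the pooled list, 501.2 in replicate 1 and 388.0 in replicate 3. The peak of simj, a subunit of the NuRD chromatin remodelling complex, had 879.0 in the pooled list, 519.7 in replicate 1 and 366.0 in replicate 3. The peak of for, the cGMP-dependent protein kinase known for its effect on larval foraging, had 821.7 in the pooled list, 494.9 in replicate 1 and 320.3 in replicate 3. In all 10 of these strongest peaks the replicate 1 signal was above the replicate 3 signal, as was the median over all peaks off X.

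Further peaks with a signal of 500 or more lay in genes of varied function. The voltage-gated potassium channel gene KCNQ had a signal of 771.2 in intron 1 of 16, 795 bp upstream of the nested gene mlt. Msp300, which encodes a nesprin that anchors nuclei to actin, had 698.0 in intron 12 of 17, the latest intron among the strongest 22 peaks, and the sequence within 100 bp of its summit had a GC content of 20.9% and was 60.2% soft-masked repeat. Baldspot, a fatty acid elongase, had 642.3, and Cyt-c-p, a cytochrome c gene, had 631.1. The strongest peak with its own promoter free of a peak was that of CG9663, and Cyt-c-p, CG4496 and KCNQ also lacked a promoter peak.

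Both replicates held nearly every intron peak. A peak of replicate 1 overlapped 627 of the 628 by at least 1 bp, and a peak of replicate 3 overlapped all 628. Over all 3972 peaks off X the same counts were 3964 and 3966. To ask for more than any overlap, each replicate list was limited to its 4574 strongest peaks, as many as the IDR list holds. By that rule 473 near-promoter intron peaks (75.3%, exact 95% interval 71.8% to 78.6%) overlapped the strongest peaks of both replicates, against 76.9% of all peaks off X. The share was 78.6% for promoter peaks and 71.8% for deep intron peaks. The strongest peaks of neither replicate overlapped 8 of the 628 near-promoter intron peaks, against 43 of all 3972 peaks off X. The strongest of those 8 had a pooled signal of 95.9. The IDR list was itself chosen from both replicates, so this overlap is a description and not a separate line of evidence.

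Across the 627 intron peaks with a value in both replicates, the median signal was 85.1 in replicate 1 and 61.8 in replicate 3. The value in replicate 1 was higher at 510 of them, with a median ratio of 1.44. Over all peaks off X the medians were 86.0 in replicate 1 and 64.3 in replicate 3, so this offset was not particular to the intron peaks. Spearman's rho between the replicates was 0.606 over these 627 peaks, which share the libraries and, for neighbouring summits, the interval. Each value was that of the overlapping replicate peak with the nearest summit. Taking the strongest overlapping peak instead changed the value at 80 of them and gave a rho of 0.672.

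**Figure D1:**
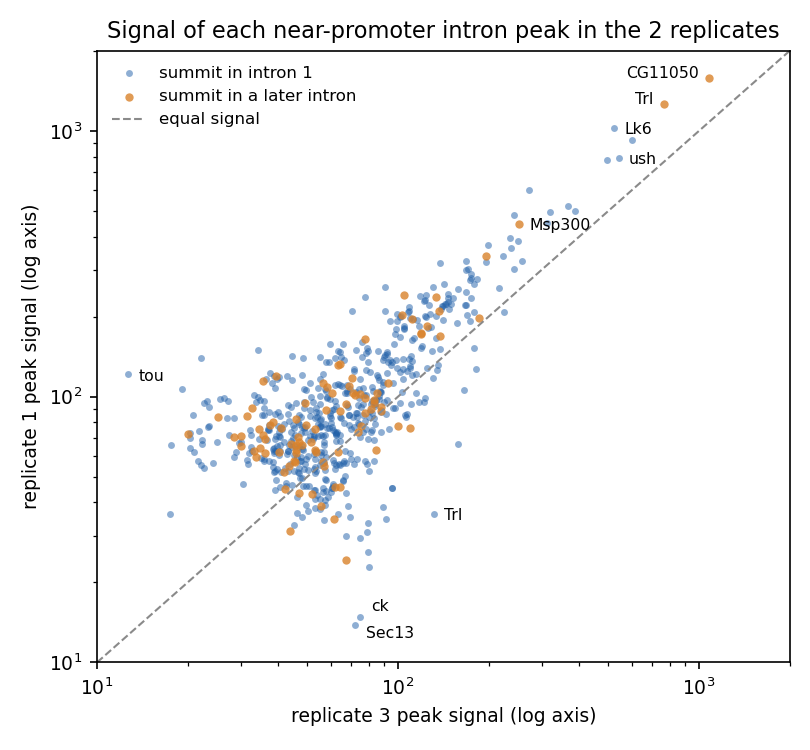
Signal of each near-promoter intron peak in replicate 1 (vertical, log axis) against replicate 3 (horizontal, log axis), with summits in intron 1 in blue and in later introns in orange. Most points lie above the dashed line of equal signal, with 510 of 627 higher in replicate 1; the strongest peaks fall close to a line, while tou, Trl, ck and Sec13 lie far from it.

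In 6 intron peaks the ranks in the replicates differed most, 3 in each direction. In tou, a chromatin factor gene, a summit with a pooled signal of 90.9 had 121.3 in replicate 1 and 12.7 in replicate 3. The strongest peaks overlapping it had 237.0 and 77.5, and belonged to a neighbouring summit in the same intron of tou, whose pooled signal was 300.4. PRAS40 (139.4 in replicate 1 and 22.2 in replicate 3) and trbl (106.5 and 19.2) stood apart in the same direction. In the opposite direction stood a second summit in Trl (36.2 in replicate 1 and 131.3 in replicate 3), ck, which encodes a class VII myosin (14.8 and 75.01), and Sec13, a coat and nuclear pore protein gene (13.8 and 72.1). With the strongest overlapping peak in place of the nearest, PRAS40 had 139.4 in replicate 1 and 64.5 in replicate 3, trbl had 106.5 and 110.1, the summit in Trl had 222.1 in replicate 1 and 131.3 in replicate 3, ck had 82.9 and 75.01, and Sec13 had 86.8 and 90.3. By that rule the replicates differed by a smaller factor in all 6, and replicate 1 remained the higher by a wide margin in tou and PRAS40. The order of the replicates was reversed in trbl, in the Trl summit and in ck. The one intron peak without a replicate 1 peak lay in Ada2b, a subunit of the SAGA acetyltransferase complex. Its pooled signal was 414.6, its replicate 3 signal was 191.7, and another summit lay 202 bp away.

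Intron sequence was not bound evenly with distance from a TSS. Sequence that could hold a near-promoter intron peak amounted to 9.05 Mb, 8.20% of the arms other than X, and held 69.4 summits per Mb (exact Poisson 95% interval 64.1 to 75.02). Between 500 and 750 bp from a TSS there were 93.1 summits per Mb (79.5 to 108.3), and between 1750 and 2000 bp there were 54.8 (42.6 to 69.5). Introns within 250 bp of a TSS held 221.3 per Mb (198.7 to 245.7), and those more than 10000 bp away held 7.57 (6.20 to 9.16). The density thus fell with distance, except from 1250 to 2000 bp, where the bins held 55.1, 49.6 and 54.8 per Mb with intervals that overlapped. Replicate 1 alone gave 97.5 summits per Mb at 500 to 750 bp and 57.9 at 1500 to 1750 bp, and replicate 3 alone gave 95.9 and 51.8.

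**Figure D2:**
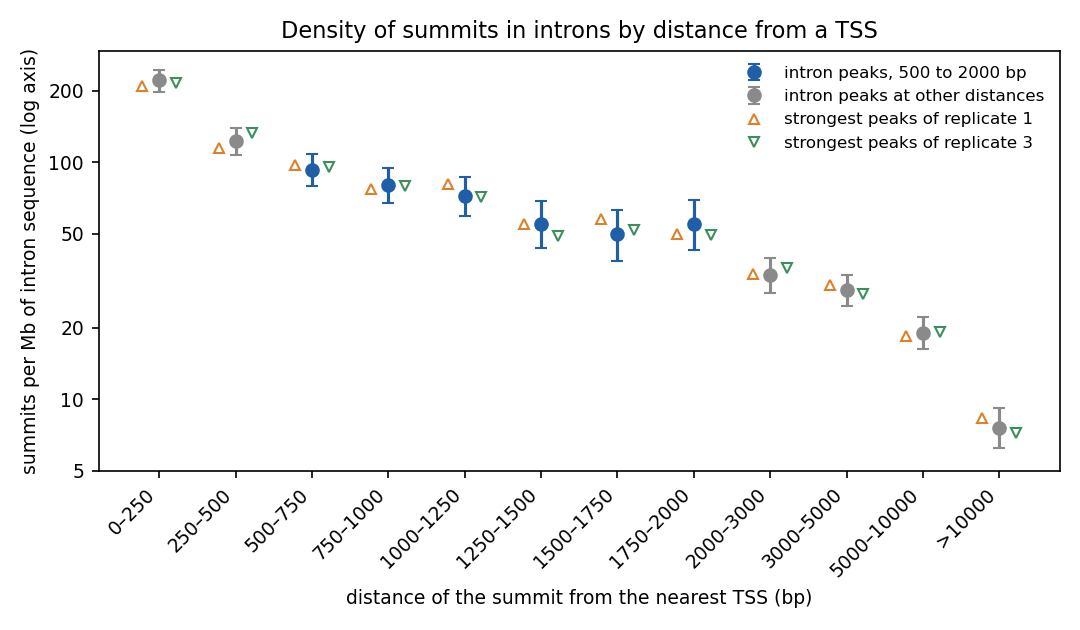
Summits per Mb of coding-gene intron sequence (vertical, log axis) in bins of distance from the nearest TSS (horizontal, bp), with exact Poisson 95% intervals; open triangles are the 4574 strongest peaks of each replicate alone. The near-promoter bins, in blue, run from 93.1 to 54.8 per Mb with a low of 49.6, between 221.3 next to a TSS and 7.57 beyond 10000 bp.

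The median signal also differed between the bins inside that zone, without a steady fall, and no intervals were computed for these medians. The median lay between 141.0 and 154.3 in the 3 bins up to 1250 bp and between 125.5 and 138.7 in the 3 bins beyond. Of the 22 peaks with a signal of 500 or more, 6 lay at 500 to 750 bp, 9 at 750 to 1000 bp, 5 at 1000 to 1250 bp and 1 in each of the next 2 bins. The bins from 500 to 2000 bp held 168, 135, 112, 79, 66 and 68 intron peaks in that order, so these counts come from unequal totals. The deposited pooled list, before the IDR procedure, held 30000 peaks and showed how many weaker calls lay at the same kind of position. There were 3971 pooled peaks at near-promoter intron positions, of which 628 were in the IDR list (15.8%, 14.7% to 17.0%), against a background of 15.6% of all 25445 pooled peaks off X. The share was 25.7% of promoter peaks and 8.82% of deep intron peaks. Near-promoter intron peaks thus passed at about the background rate, between those classes. That reading depended on the annotation, since with 1 TSS per gene the share was 18.6% (17.3% to 20.1%), above 15.6%.

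The limits of 500 and 2000 bp cut through a continuum. Just inside the inner limit, a summit in lola, a zinc finger transcription factor gene, lay 502 bp from a TSS with a signal of 220.8, and just outside it a summit in pAbp, the poly(A)-binding protein gene, lay at 500 bp with 365.1. Just inside the outer limit, a summit in ps lay at 1998 bp with 196.4, and just outside it a summit in Trpm, a cation channel gene, lay at 2030 bp with 98.1.

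By chromosome arm, 135 of the near-promoter intron peaks lay on 2L, 147 on 2R, 145 on 3L, 200 on 3R and 1 on the small chromosome 4. Per Mb of eligible sequence the arms held 67.0 (56.2 to 79.4), 70.2 (59.3 to 82.5), 63.8 (53.9 to 75.1), 78.4 (67.9 to 90.1) and 8.05 (0.204 to 44.9), in that order. The intervals of the 4 large arms overlapped. Chromosome 4, which is largely heterochromatic, fell below them with its single peak, in Asator, a kinase gene, at a signal of 91.8 and 503 bp from a TSS. Chromosome 4 held only 12 IDR peaks in all, so its share of near-promoter intron peaks was 8.33%, against 14.6% to 16.8% on the large arms.

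Most summits lay in intron 1. Counted in the transcript of the host gene that gives the lowest intron number, 536 of 628 summits (85.4%, exact 95% interval 82.3% to 88.0%) were in intron 1, 65 in intron 2, 15 in intron 3 and 12 in intron 4 or later. The same count over every 200th base of eligible sequence, 45298 positions in all, gave 63.5% in intron 1. Among the 3343 pooled peaks at such positions that were not in the IDR list it gave 74.7%. Because a position near a TSS is more often in intron 1, the count was repeated by distance. It gave 87.5% of intron peaks, against 68.1% of positions, at 500 to 1000 bp, 83.8% against 62.5% at 1000 to 1500 bp, and 82.8% against 58.3% at 1500 to 2000 bp. Numbering introns in the longest transcript lowered the share to 69.6% of intron peaks, against 49.9% of positions. By distance, intron peaks exceeded positions by 19.4, 21.3 and 24.5 percentage points, more than the width of the binomial interval on either side.

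**Figure D3:**
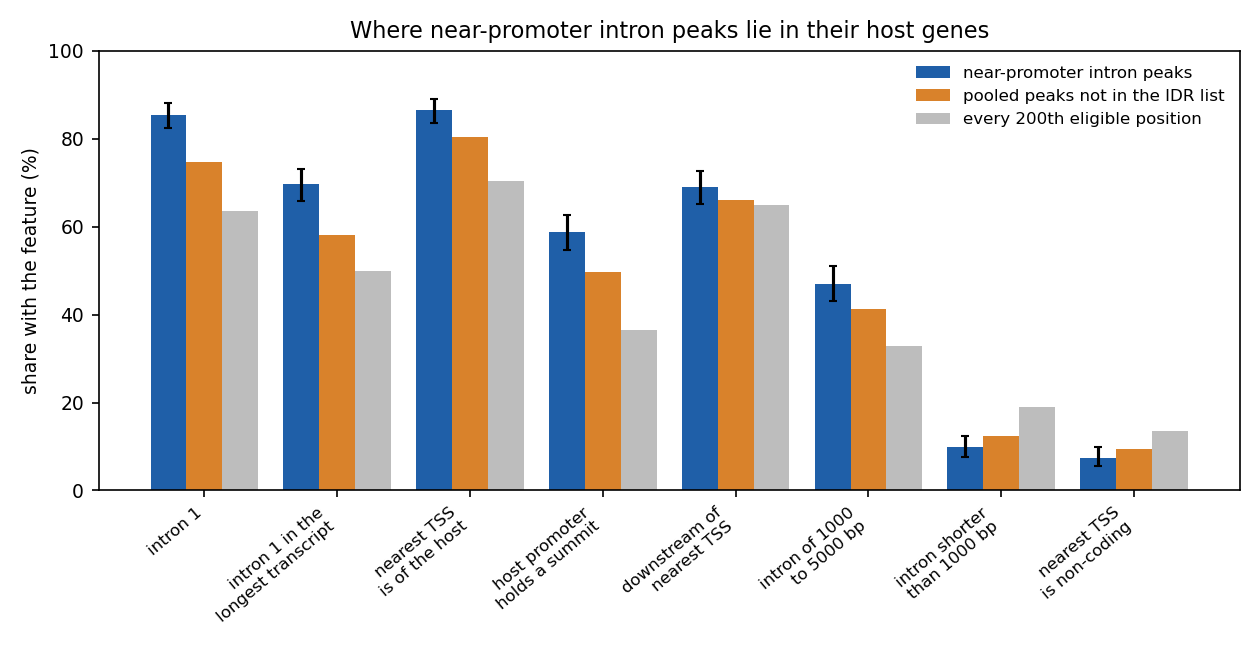
Share (%, vertical) of near-promoter intron peaks (blue, with exact binomial 95% intervals), of pooled peaks at such positions outside the IDR list (orange) and of every 200th eligible position (grey) with each feature. Intron 1 held 85.4% of intron peaks, against 74.7% of pooled peaks outside the IDR list and 63.5% of eligible positions, and introns shorter than 1000 bp held 9.87%, against 12.3% and 19.0%.

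By intron number, the median signal was 144.2 (135.9 to 152.5) for the 536 peaks in intron 1, 126.6 (113.3 to 152.5) for the 65 in intron 2 and 169.7 (109.3 to 188.1) for the 27 in later introns, and these intervals overlapped. Introns that held a peak had a median length of 4079 bp, against 4665 bp for eligible positions. That difference came with a shift towards the middle of the range: 47.0% of intron peaks lay in introns of 1000 to under 5000 bp, against 32.9% of positions, while both shorter introns (9.87% against 19.0%) and those of 5000 bp or longer (43.2% against 48.1%) held a smaller share. The CG11050 summit, in an intron of 140 bp, was 1 of 62 intron peaks in the shortest class.

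The nearest TSS usually belonged to the host. It did so for 543 of 628 intron peaks (86.5%, 83.5% to 89.0%), against 70.5% of eligible positions and 80.3% of pooled peaks outside the IDR list. For the other 85, such as the peaks in ush and KCNQ, the nearest TSS was that of a nested or neighbouring gene. A noncoding gene had the nearest TSS at 47 intron peaks (7.48%, 5.55% to 9.83%), against 13.6% of positions. Examples are Galphai, a G protein subunit gene whose peak (signal 298.7) was 1241 bp from a long noncoding RNA, and a weaker of 2 peaks in the ecdysone receptor gene EcR (188.2), which was 1395 bp from a tRNA gene. Summits lay downstream of their nearest TSS at 433 intron peaks (68.9%, 65.2% to 72.6%), close to the 64.9% of positions. The 141 that lay upstream of a nearest TSS of their own host, as at Trl and Lk6, lay in introns that precede an alternative start of the same gene.

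Host genes often carried a promoter peak too. An IDR summit lay within 500 bp of a TSS of the host at 369 of 628 intron peaks (58.8%, 54.8% to 62.6%), against 36.5% of eligible positions and 49.7% of pooled peaks outside the IDR list. With the stronger 50% of the IDR peaks alone it was 37.8% (32.3% to 43.5%), against 21.3% of positions, and with 1 TSS per gene 39.6% (35.5% to 43.8%), against 23.4%. The median signal was 147.4 (136.6 to 158.0) for intron peaks whose host promoter held a summit and 136.1 (127.6 to 152.2) for those whose host promoter held none. Peaks with a signal of 500 or more were 17 of 369 (4.61%) where the host promoter held a summit and 5 of 259 (1.93%) where it held none. Another IDR summit of any kind lay within 500 bp of 80 intron peaks, within 1000 bp of 182 and within 2000 bp of 336 (53.5%). Of those 336, the nearest other summit was a promoter peak at 190, and the intron peak was the stronger of the pair at 83 of the 190. At the other extreme, 97 intron peaks had no other summit within 10000 bp. The intervals of 73 intron peaks overlapped another IDR interval, and 2 intervals each held a pair of these summits, so neighbouring summits are not independent.

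The 628 peaks fell in 530 host genes, 7.03% (exact 95% interval 6.47% to 7.63%) of the 7535 protein-coding genes off X with any eligible sequence. A single gene contained 584 of the peaks, 2 overlapping genes contained 43, and 3 or more contained 1. Hosts had a median of 2689 bp of eligible sequence and the other genes 315 bp, and the part of this difference in which genes were hosts was not tested. Among the 1883 genes with the most eligible sequence, 1438 to 35215 bp each, 395 (21.0%) were hosts. Within those 1883 genes the promoter held a summit in 56.5% of hosts and in 24.0% of the others. Over all sizes these shares were 53.6% of hosts and 25.1% of other genes.

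Of the hosts, 421 held 1 near-promoter intron peak, 86 held 2, 15 held 3 and 8 held 4 or more. Acsl, a long-chain acyl-CoA synthetase gene, held 6, with signals from 97.9 to 228.0, and no peak at its promoters. Lk6 held 5, with signals of 1549, 400.5, 125.5, 120.7 and 96.3. HmgZ held 4, with signals of 1526, 207.8, 178.8 and 92.0. The splicing regulator gene ps also held 4 (449.9, 276.9, 196.4 and 103.8), as did CG9674 (438.4, 228.3, 168.3 and 99.4). In Lk6 and HmgZ a single summit stood far above the others in the gene, while the 6 summits of Acsl were all of moderate signal. The tagged gene tHMG1 and its neighbour tHMG2 had 0 bp of eligible sequence and so could not be hosts.

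Hosts were counted in 15 gene lists, each against the genes of that list with eligible sequence, and per Mb of that sequence to allow for intron size. Intervals treat genes or peaks as independent, and a gene can be in more than 1 list. The lists do not hold every gene of their kind: the hosts simj, tou and Adf1, described above, were in none of them. Over all genes 7.03% were hosts and eligible sequence held 69.4 intron peaks per Mb. Among regulators of transcription, 26 of 151 transcription factor genes were hosts (17.2%, 11.6% to 24.2%), at 85.1 peaks per Mb (62.6 to 113.2). They include Trl, ush and Stat92E, the effector of JAK/STAT signalling, whose 2 peaks had signals of 323.5 and 167.1. In the list of chromatin and transcription machinery 12 of 83 were hosts (14.5%, 7.70% to 23.9%), at 181.3 per Mb (101.5 to 299.0). Its strongest hosts were HmgZ, HmgD and Ada2b. The peaks shared by HmgZ and HmgD weigh on that density, and they made each of these genes a host.

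Among signalling genes, 27 of 104 kinases and phosphatases were hosts (26.0%, 17.9% to 35.5%), at 122.1 per Mb (87.6 to 165.6). Lk6 and for led this list, followed by fray, a kinase of ion transport regulation whose intron peak (554.1) it shared with the overlapping gene CG7694. Small GTPases and their regulators counted 14 hosts of 61 (22.95%, 13.2% to 35.5%), at 91.7 per Mb (53.4 to 146.9). PDZ-GEF, an exchange factor of Rap1, led with a signal of 308.5, ahead of Cdep at 242.5 and Rab14 at 235.9. Cyclic nucleotide, G protein and calcium signalling counted 5 of 34 (14.7%, 4.95% to 31.1%), at 32.6 per Mb (10.6 to 76.2). Its strongest were Galphai (298.7), the RGS protein gene loco (179.3) and the cAMP-activated exchange factor gene Epac (120.7). The symbol kurtz in this list was not matched, so its gene krz, a host with a signal of 108.3, is missing from these counts.

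Genes of RNA binding, metabolism and time keeping were also hosts in part. RNA-binding protein genes counted 14 of 55 (25.5%, 14.7% to 39.0%), at 90.8 per Mb (56.2 to 138.8), led by mub (454.3), ps (449.9) and the translational repressor gene brat (366.5). Metabolism and membrane transport counted 22 of 98 (22.4%, 14.6% to 32.0%), at 171.4 per Mb (120.0 to 237.3). Its strongest hosts act in lipid storage and use: bmm, the triglyceride lipase brummer (299.5), Acsl (228.0) and mdy, a diacylglycerol acyltransferase (227.9). The ecdysone response list counted 6 of 26 (23.1%, 8.97% to 43.6%), at 78.0 per Mb (35.7 to 148.2), with the nuclear receptor genes Eip75B (320.3) and EcR (304.0) and with ImpL2, an antagonist of insulin signalling (307.3). Circadian clock genes counted 4 of 14 (28.6%, 8.39% to 58.1%), at 207.0 per Mb (83.2 to 426.5): the casein kinase gene dco (284.2) led, followed by the clock transcription factor genes Pdp1 (158.1) and vri (143.8).

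Structural genes ranged widely. Cytoskeleton, motors and polarity counted 14 of 79 (17.7%, 10.0% to 27.9%), at 77.9 per Mb (45.4 to 124.8), led by Msp300, the cofilin gene tsr (460.6) and the dynein heavy chain gene Dhc64C (357.1). Ion channels, receptors and synaptic proteins counted 13 of 98 (13.3%, 7.26% to 21.6%), at 50.7 per Mb (27.7 to 85.0), led by KCNQ, the synapsin gene Syn (368.7, in an intron that also contains Timp) and the diuretic hormone receptor gene Dh44-R2 (354.8). Cell adhesion, guidance and matrix genes counted 3 of 132 (2.27%, 0.471% to 6.50%), at 6.24 per Mb (1.29 to 18.2). Those 3 were the dystroglycan gene Dg (139.2), Cad96Ca (135.4) and beat-Ib (134.2). It was the one list of the 15 whose intervals, by genes and by Mb, both lay below the values for all genes.

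Markers of testis and muscle gave small numbers. The testis and sperm development list, the tissue for which tHMG1 is named, counted 3 hosts of 31 (9.68%, 2.04% to 25.8%), at 93.4 per Mb (25.4 to 239.1). They were zfh1 (385.9), a transcription factor of the cyst stem cells, Stat92E and Cds (126.4), a phospholipid synthesis enzyme; zfh1 and Stat92E act in other tissues too. Only 31 of the 53 matched genes of the list on these arms had eligible sequence. The symbol punt in this list was not matched. Its gene put, a host with a signal of 231.8, is therefore missing from these counts. The sarcomere list counted 4 of 30 (13.3%, 3.76% to 30.7%), at 50.8 per Mb (13.8 to 130.1), with Msp300, the tropomodulin gene tmod (171.8) and the talin gene rhea (125.3). Innate immunity counted 4 of 29 (13.8%, 3.89% to 31.7%), at 167.9 per Mb (61.6 to 365.4), with Stat92E, the Toll receptor gene Tl (188.1) and Dif (183.4), an NF-kappa B factor.

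**Figure D4:**
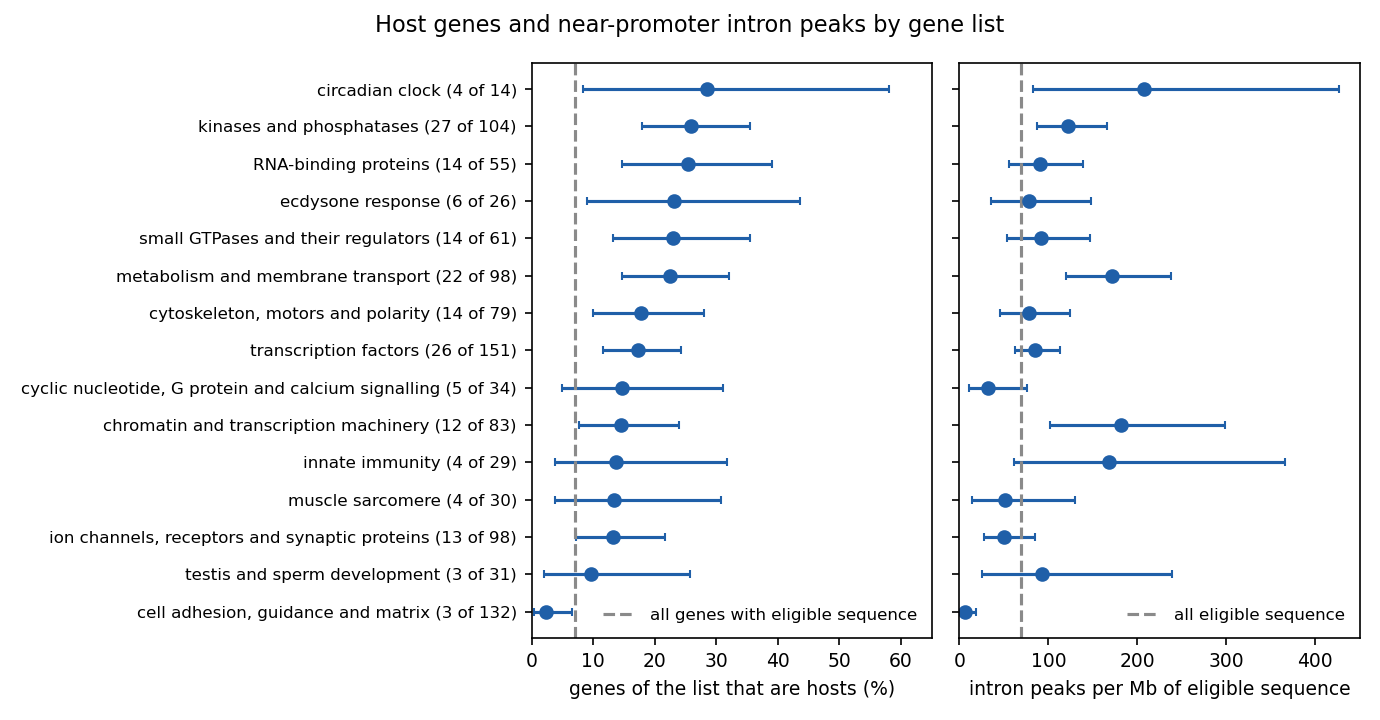
For each of 15 gene lists, the share of its genes with eligible sequence that were hosts (left, %) and the number of near-promoter intron peaks per Mb of that sequence (right), with exact 95% intervals; dashed lines are the values for all genes, 7.03% and 69.4 per Mb. Kinases (26.0% and 122.1 per Mb) and metabolism (22.4% and 171.4 per Mb) have both intervals above the lines. Cell adhesion (2.27% and 6.24 per Mb) has both below. The intervals are unadjusted, and the lists were chosen with earlier results of these data known.

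The lists of kinases, metabolism, chromatin and clock genes had both intervals above the values for all genes. The lists were chosen with earlier results of these data known, and the intervals were not adjusted for the number of lists, so this is a description only. For chromatin genes the lower limit of the share, 7.70%, was close to 7.03%, and HmgZ and HmgD were counted separately although they shared peaks. The clock list rested on 7 peaks in 4 genes. In 6 other lists the interval of the share of hosts was above 7.03% but the interval per Mb contained 69.4. They were transcription factors, RNA-binding proteins, small GTPases, ecdysone, cytoskeleton and ion channel genes. The density itself was 50.7 per Mb for ion channel genes and from 77.9 to 91.7 for the others. The part of eligible sequence per gene in their larger share of hosts was not tested. Of the 15 lists, 11 had a promoter summit in a larger share of their eligible genes than the 27.1% of all eligible genes, from 36.7% of the metabolism genes to 64.3% of the clock genes, with 43.3% of the kinases. The other 4 had a smaller share, with 16.7% of the adhesion genes, 16.1% of the testis genes, 15.3% of the ion channel genes and 10.0% of the sarcomere genes. For the ion channel genes the shares lay on opposite sides of those for all genes, with 13.3% hosts, against 7.03%, and 15.3% with a promoter summit, against 27.1%. The part of promoter binding in the counts of intron peaks by list was not tested.

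The sequence within 100 bp of the summits was richer in A and T than eligible sequence. Their median GC content was 36.8% (35.8% to 37.3%), against 39.8% for eligible positions and 41.3% (41.3% to 41.8%) for pooled peaks outside the IDR list. Promoter peaks, with a median of 36.3%, and deep intron peaks, with 37.3%, had much the same value. Within the near-promoter intron peaks the median fell with signal: over 5 groups of 125 or 126 peaks from weak to strong it was 39.8% (37.8% to 41.3%), 37.8%, 36.8%, 34.8% and 34.3% (32.3% to 35.8%). The weakest group thus had the GC content of eligible sequence. Soft-masked repeats made up 19.6% (16.6% to 22.9%) of bases in these windows. That interval is approximate, since it treats the share of bases as a share of the 628 windows. The share was 21.4% in promoter peaks, 21.3% in deep intron peaks, 17.9% in eligible sequence and 15.7% in pooled peaks outside the IDR list. Of the windows at near-promoter intron peaks, 23 were over 50% masked. GC content moved with signal, and its part in the signal was not tested.

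**Figure D5:**
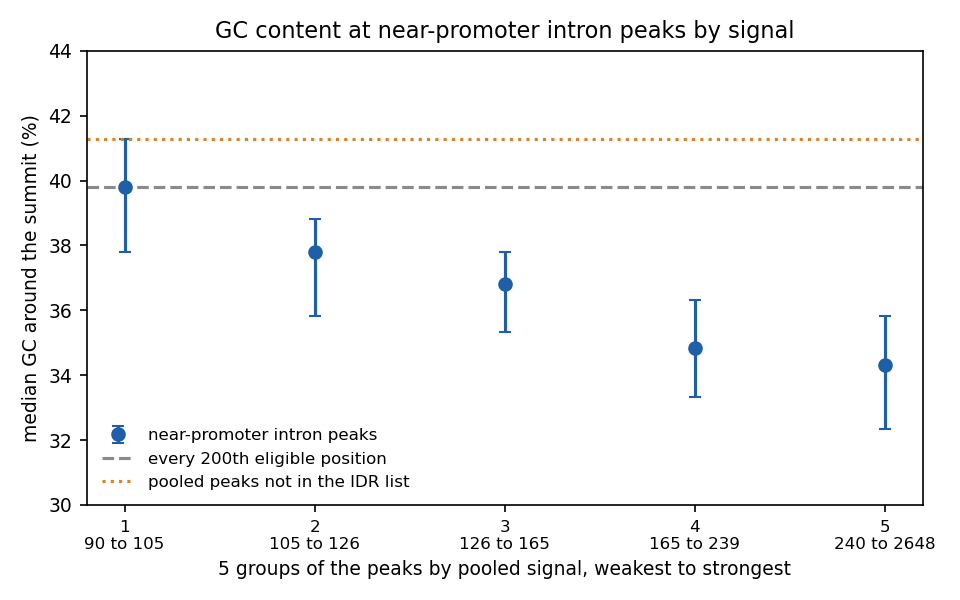
Median GC content (%, vertical) within 100 bp of the summit for near-promoter intron peaks in 5 groups of pooled signal from weakest to strongest (horizontal, with the signal range under each), with order-statistic 95% intervals. The median is 39.8% in the weakest group and 34.3% in the strongest; the dashed line is eligible sequence at 39.8% and the dotted line pooled peaks outside the IDR list at 41.3%.

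Motif matches are described as letters present within 100 bp of the summit on either strand, with no reading of a factor's presence. GAGAG, the core of the GAGA factor site, was in 162 windows (25.8%, 22.4% to 29.4%), against 20.7% of eligible windows and 26.1% of pooled peaks outside the IDR list. The median signal was 140.4 in windows with GAGAG and 143.7 in those without. AACAAT, a site of SRY-type HMG boxes, was in 26.6% (23.2% to 30.2%), against 22.1% of eligible windows, and CTTTGA, a site of TCF-type HMG boxes, in 9.71% (7.51% to 12.3%), against 13.2%. The A and T rich TATAAA was in 32.2% of windows, against 26.2%, and the run AAAAAAAA in 13.9%, against 11.9%. CACACACA was in 4.94% (3.38% to 6.93%), against 4.51%, and CACGTG in 2.39%, against 2.35%. Over all 3972 peaks off X, GAGAG was in 26.2%, AACAAT in 25.1%, CTTTGA in 11.1% and TATAAA in 34.2%. In the same peaks AAAAAAAA was in 12.6%, CACACACA in 5.21% and CACGTG in 2.34%. Each of these shares lay inside the interval of the near-promoter intron peaks, so none was particular to them. TATCGATA contains CGATA, so those counts overlap.

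Of 3 motifs known from promoters, TATCGATA and GGTCACACT were rare at the intron peaks and CGATA was not. TATCGATA, the replication-related element DRE, was in 2 windows of near-promoter intron peaks (0.318%), against 5.12% of promoter peaks and 0.408% of eligible windows. GGTCACACT, the site of M1BP, was in 0 of 628 windows (exact 95% upper bound 0.586%), against 2.41% of promoter peaks and 0.0751% of eligible windows. CGATA, the core of the BEAF-32 site, was in 25.0% of windows (21.7% to 28.6%), against 35.2% of promoter peaks and 20.9% of eligible windows. For each of these 3 motifs the share of near-promoter intron peaks was nearer to that of eligible sequence than to that of promoter peaks. Deep intron peaks had similar shares: of 588 windows, 0 held TATCGATA, 0 held GGTCACACT and 23.8% held CGATA.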

How the data were processed

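Chromatin immunoprecipitation with sequencing was measured in 2 biological replicates of 1 group. The authors deposited peak lists for each replicate, for the pooled replicates and for the peaks kept by IDR, and the lists for build dm6 were used here. Each peak carries a signal that the authors deposited as their peak caller's enrichment. Each also carries a −log10 q-value as deposited, which had a single value in the IDR list and was not used. The IDR threshold, caller, aligner and read filters were not given in the sources used here, and depth is unknown. Because no reads were counted, intervals cover numbers of peaks, genes or positions only.

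All 4574 IDR peaks are the strongest 4574 of the 30000 pooled peaks. Summits were placed on the Ensembl release 115 annotation, without transposable elements, and on the RefSeq release 6 sequence, in which the last peak of each of 6 arms lay inside the arm. Eligible sequence is every intron base that meets the rule for the peaks, and it was sampled at every 200th base. Shares carry exact binomial intervals, densities exact Poisson intervals and medians order-statistic intervals, all at 95%, which treat peaks or genes as independent. With 1 group no test between conditions was made.

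Named genes are hosts of the 10 strongest peaks, the strongest of each arm, up to 3 hosts of each list, the 5 hosts with most peaks (of 6 tied at 4, the 3 with the strongest summits), the peaks nearest the limits, and the 6 whose replicate ranks differ most. Others with a signal of 500 or more, EcR and Ada2b were named after their values were seen. The peaks, the 15 gene lists and the 10 motifs were chosen with earlier results of these data known. In the lists, 16 symbols matched no annotated gene symbol and were left out of the counts. Some are other names of annotated genes, such as punt for put and kurtz for krz. Both of these genes were hosts, so some counts of hosts by list are too low. The placement of summits and the motif counts were tested on simulated data. Python 3.11.15, numpy 2.4.6, scipy 1.17.1, pandas 2.3.3 and matplotlib 3.10.9 were used. Alternatives were the stronger 50% of the peaks, each replicate alone, other TSS sets and limits, other overlap rules, other windows and, added after seeing the data, transposable elements counted as genes.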

Additional observations from a re-analysis of the deposited data

How the results depend on the processing

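Over 12 results, 74 alternative values stayed within the interval of the reported value (or within 1.5 times the count) and 27 did not. The cause was not tested where none is given. Limiting the list to the stronger 50% left 307 intron peaks and 33.9 per Mb, with 97.4% in the strongest of both replicates, 37.8% with a summit at the host promoter and a median GC of 34.8%. Starting more than 1000 bp from a TSS left 325 peaks (8.18% of those off X), 58.5 per Mb, 14.4% of pooled peaks in the IDR list and 44.6% above the median signal. With 1 TSS per gene these peaks were 14.2% of those off X, at 81.3 per Mb, with 18.6% of pooled peaks in the IDR list, 75.1% nearest to a host TSS and 39.6% with a promoter summit. The nearest TSS was of the host in 93.6% with TSSs of coding genes alone and in 82.4% with transposable elements counted as genes. The share in both replicates was 71.5% with 50% overlap and 65.6% with replicate summits within 100 bp. Intron 1 held 69.6% by the longest transcript. A promoter summit was found in 44.4% within 250 bp and 82.6% within 1000 bp, where an intron peak can count as its own promoter summit. Median GC was 35.6% and GAGAG was in 12.1% within 50 bp of the summit, and 40.02% and 58.4% within 250 bp.

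Leaving out each replicate in turn gave 618 to 650 intron peaks, 84.5% to 85.3% in intron 1, 57.1% to 61.3% with a promoter summit and a median GC of 36.8% to 38.3%, the higher GC with replicate 3 alone; the cause was not tested. No paired analysis was possible because the 2 replicates form a single group. Depth per peak is unknown, so no limit of detection can be given for introns without a peak.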
